A study of Homo sapiens with 2 samples.

Results

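Open chromatin sites without a single CpG were examined in H9 cells, an established line of human embryonic stem cells. They are the peaks of the authors' list of accessible regions on chromosomes 1 to 22 in which no CpG is listed between the peak's start and end. The list held 46884 autosomal peaks, of which 2309 (4.92%, 95% exact binomial interval 4.73% to 5.12%) had no CpG. Another 12355 peaks held 1 to 3 CpGs and served as the comparison, weighted to the width and signal of the sites without CpG where the text says so.

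The study used ATAC-Me, in which a transposase inserts sequencing adapters into open chromatin and the recovered DNA is then converted so that unmethylated cytosines read as thymine. There was 1 group, untreated H9 cells kept pluripotent without feeder cells on Matrigel in mTeSR medium and brought into single-cell suspension with Accutase, with 2 replicates. The labels do not tell whether each replicate is a culture of its own, and the SDs given here may hold technical spread only. H9 is a single line, and no second line or differentiated group was analysed here.

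A CpG is a cytosine followed by guanine, the dinucleotide at which mammalian DNA methyltransferases mainly act. Methylated cytosines deaminate to thymine over evolution, which has left most of the human genome poor in CpGs, with dense clusters, the CpG islands, at many gene starts. Open chromatin at active gene starts and enhancers is usually unmethylated or low in methylation. A site without CpG carries no CpG methylation of its own. Only CpGs were read here, so methylation is given for the CpGs beside it and not for other cytosines inside it.

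The replicates held 28475863 and 51406146 autosomal CpG reads and covered 31.6% and 59.0% of 27852739 CpGs. Replicate 2 read as more methylated than replicate 1 at every distance from the sites, so both values are given and differences were taken within a replicate. Replicate 1 was also more concentrated on open sites: the CpGs nearest to a site without CpG had 3.90 times the reads per CpG of those 2000 to 10000 bp away, and 1.58 times in replicate 2. The smallest two-sided p of an exact sign-flip permutation test on 2 pairs is 0.5, and differences are set beside the SD between replicates instead. No RNA was measured, and the identity of the cells was not tested here. Of 44 autosomal genes in a pluripotency list, 42 (95.5%) had a peak of any kind within the gene or 10 kb, against 82.4% of 19122 protein-coding genes. The list also holds genes such as SOX1 and PAX6, and a nearby peak does not tell whether a gene is expressed. This share therefore does not read the identity of the cells.

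The sequences of a few sites show what such a region looks like. For 25 sites the summit fell within a RefSeq promoter window, the stretch of 300 bases from 250 before to 50 after an annotated gene start. Of these windows 12 belonged to long non-coding RNAs and 13 to protein-coding genes. The windows of the 6 sites of highest signal are given here, 5′ to 3′ along the strand of the gene, from RefSeq on GRCh38.p14. Capitals mark the bases inside the open site, and no capital stretch holds CG.
PURPL, chr5:27472042-27472341, plus strand: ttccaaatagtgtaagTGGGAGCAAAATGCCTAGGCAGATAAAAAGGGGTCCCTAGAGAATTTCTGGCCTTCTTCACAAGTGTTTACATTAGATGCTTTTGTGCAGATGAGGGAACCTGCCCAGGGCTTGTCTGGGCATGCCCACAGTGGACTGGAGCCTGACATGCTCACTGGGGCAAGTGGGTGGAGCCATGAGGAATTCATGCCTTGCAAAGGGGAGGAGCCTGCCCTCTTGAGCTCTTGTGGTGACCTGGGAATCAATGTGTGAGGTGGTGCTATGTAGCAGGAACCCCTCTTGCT
CAPSL, chr5:35938573-35938872, minus strand: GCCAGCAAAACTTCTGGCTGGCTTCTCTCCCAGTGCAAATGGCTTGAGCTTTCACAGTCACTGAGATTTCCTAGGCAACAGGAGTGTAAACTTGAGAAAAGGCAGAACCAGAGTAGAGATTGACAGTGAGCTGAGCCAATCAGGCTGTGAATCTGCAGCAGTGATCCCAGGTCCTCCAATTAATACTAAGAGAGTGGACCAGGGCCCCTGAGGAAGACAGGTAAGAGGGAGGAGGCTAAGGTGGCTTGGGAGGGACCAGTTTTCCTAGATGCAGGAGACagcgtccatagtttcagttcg
GS1-204I12.4, chr1:185646259-185646558, plus strand: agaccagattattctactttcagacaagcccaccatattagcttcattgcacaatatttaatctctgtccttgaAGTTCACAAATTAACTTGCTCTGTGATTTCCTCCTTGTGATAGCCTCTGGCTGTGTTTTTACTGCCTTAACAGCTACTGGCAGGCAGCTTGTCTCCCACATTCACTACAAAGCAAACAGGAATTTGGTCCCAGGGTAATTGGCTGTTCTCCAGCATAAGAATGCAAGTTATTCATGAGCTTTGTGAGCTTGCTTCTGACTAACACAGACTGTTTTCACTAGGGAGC
LINC01997, chr3:169002761-169003060, plus strand: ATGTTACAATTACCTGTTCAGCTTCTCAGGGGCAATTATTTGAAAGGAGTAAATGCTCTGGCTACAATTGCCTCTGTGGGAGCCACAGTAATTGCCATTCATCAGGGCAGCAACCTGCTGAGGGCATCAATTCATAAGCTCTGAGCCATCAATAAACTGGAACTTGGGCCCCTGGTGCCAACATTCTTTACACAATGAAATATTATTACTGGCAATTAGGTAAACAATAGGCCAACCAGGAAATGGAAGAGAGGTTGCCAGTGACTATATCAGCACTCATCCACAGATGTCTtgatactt
MMP10, chr11:102780579-102780878, minus strand: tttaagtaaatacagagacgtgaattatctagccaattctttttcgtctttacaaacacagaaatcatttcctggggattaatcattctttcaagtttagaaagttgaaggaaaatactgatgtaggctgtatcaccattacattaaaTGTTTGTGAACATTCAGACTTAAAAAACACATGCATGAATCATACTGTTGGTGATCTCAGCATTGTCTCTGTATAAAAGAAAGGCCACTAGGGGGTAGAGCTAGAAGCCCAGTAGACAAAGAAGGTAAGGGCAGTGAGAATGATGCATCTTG
GPC5-AS1, chr13:92719906-92720205, minus strand: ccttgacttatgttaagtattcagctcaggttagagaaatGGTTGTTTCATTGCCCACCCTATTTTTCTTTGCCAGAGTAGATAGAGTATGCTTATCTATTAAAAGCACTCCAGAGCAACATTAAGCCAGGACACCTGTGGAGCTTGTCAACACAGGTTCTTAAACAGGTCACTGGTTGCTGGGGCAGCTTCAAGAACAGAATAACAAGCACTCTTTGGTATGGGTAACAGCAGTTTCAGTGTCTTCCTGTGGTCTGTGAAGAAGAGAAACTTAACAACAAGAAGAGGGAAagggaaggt

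PURPL is a long non-coding RNA gene induced by p53, CAPSL encodes a relative of the calcium-binding protein calcyphosine, and MMP10 encodes a matrix metalloprotease. GPC5-AS1 runs antisense within GPC5, a glypican of the cell surface, and the other windows belong to non-coding RNA genes. The stretches inside the sites were not runs of A and T: the part inside the PURPL site was 53.2% G and C, that of CAPSL 51.3% and that of MMP10 41.4%. The windows of CAPSL and MMP10 each held 2 CGs, in lower case outside the site, and the other windows none.

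Over all 31 sites that overlapped a window, 5584 bases were read, with no CG among them. Their GC content had a median of 44.2% and ran from 36.2% to 61.5%. All 33725 autosomal windows had a median of 58.7%, and the windows with at most 3 CGs had 41.7%. The dinucleotides TG and CA, which CpGs leave when methylated cytosine becomes thymine, stood at 16.9 per 100 bases against 12.8 in all windows, where the letters outside CG differ as well. Windows with the summit of such a site held a median of 0 CG, and 13 of the 25 held none, against a median of 14 in all windows and 3.97% of windows with none. These counts follow in part from the choice of sites without CpG.

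Short motifs were searched as exact letters on both strands of the 25 windows. The octamer ATGCAAAT, to which POU factors such as OCT4 bind, was in 1 window (4.0%, against 2.76% of the 8308 windows with at most 3 CGs and 1.75% of all windows). The letters ACAAAG, a core of SOX factor sites, were in 9 windows (36.0%, against 26.0% and 16.0%). CCAAT, the CCAAT box, was in 14 windows (56.0%, against 40.8% and 34.4%), and TATAAA, the TATA box, was in 3 (12%, against 26.3% and 11.6%). No motif searched is contained in another. In the MMP10 window the TATA box started at base 220 counted from 1 at the 5′ end, inside the open site and shortly before the gene start. The CAPSL window held CCAAT at bases 136 and 176, both inside the site. A match of letters is a description and not evidence of binding.

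Sites without CpG were narrow and weak by the measure of the peak list. Their median width was 217 bp, with quartiles of 189 and 258 bp and a range from 134 to 779 bp. Peaks with 1 to 3 CpGs had a median of 230 bp and all autosomal peaks 295 bp. A narrow peak has fewer positions at which a CpG could lie, so part of this order follows from the definition. The median signal, the peak caller's own value, was 342, against 377 in peaks with 1 to 3 CpGs and 541 in all autosomal peaks. The strongest site without CpG reached 2417, and 41.0% of all autosomal peaks, those with more than 10 CpGs, had a median signal of 967. The sites without CpG summed to 538 kb, against 17669 kb for all autosomal peaks. Their summits lay at the middle of the peak, at a median of 0.495 of the width, as in peaks with 1 to 3 CpGs at 0.498.

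**Figure D1:**
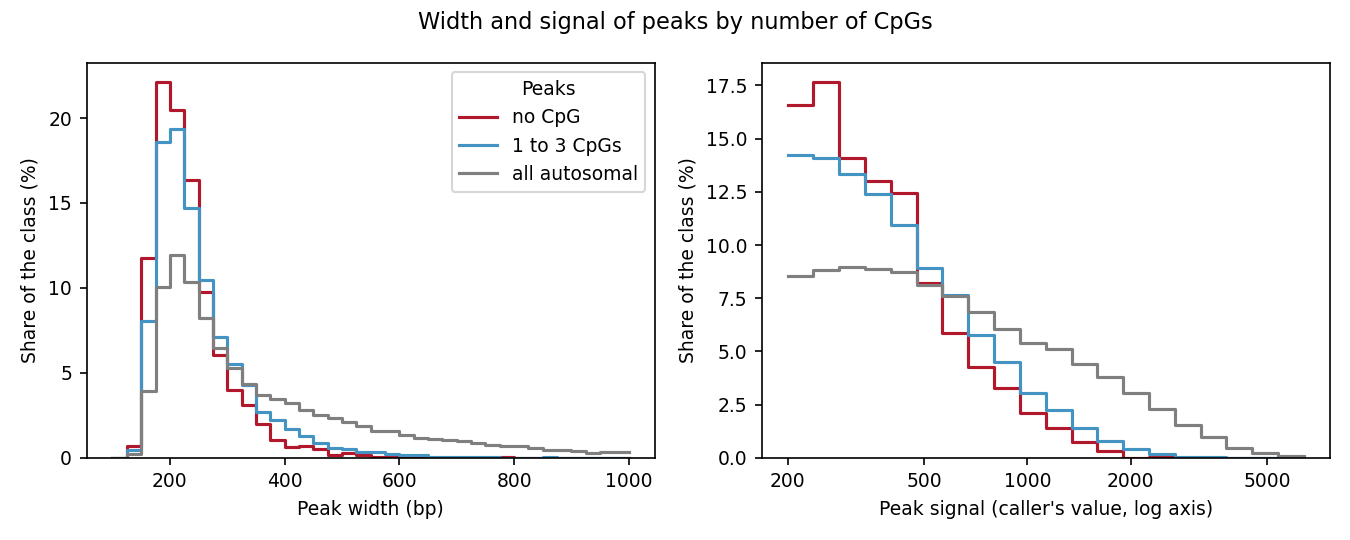
Width in bp (left) and the caller's signal on a log axis (right) of autosomal peaks, each line giving the share of a class in percent per bin, for peaks without CpG, with 1 to 3 CpGs and all. Sites without CpG gather at the narrow and weak end, at medians of 217 bp and 342, against 295 bp and 541 in all peaks; widths over 1000 bp are not drawn.

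The sites lay in long stretches free of CpGs. From the nearest CpG on one side to the nearest on the other, the CpG-free stretch had a median of 533 bp, with quartiles of 387 and 745 bp, and the longest was 2118 bp. A CpG within 1000 bp of the edge was found on both sides of 2254 sites, on 1 side of 54 and on no side of 1 site. The nearest CpG was a median of 126 bp from the edge, against 86 bp for peaks with 1 to 3 CpGs and 33 bp for all peaks. CpGs within 1000 bp of the edges numbered 0.734 per 100 bp, against 0.959 and 2.26. Between 2000 and 10000 bp from the sites there were still only 0.805 CpGs per 100 bp, against 0.961 around peaks with 1 to 3 CpGs and 1.25 around all peaks. The poverty in CpGs thus reached well beyond the sites themselves.

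Neighbouring open sites were farther off than usual. The median distance to the next peak was 22.5 kb, against 17.9 kb for peaks with 1 to 3 CpGs and 11.7 kb for all peaks. Another peak lay within 1 kb of 5.72% of the sites, against 6.77% and 15.0%. The nearest peak was itself without CpG for 8.71% of the sites, against 7.47% for peaks with 1 to 3 CpGs and 4.67% for all peaks.

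The share of peaks without CpG differed widely between chromosomes. On chromosome 4, a chromosome poor in genes and in CpGs, 189 of 2512 peaks (7.52%) had no CpG, followed by chromosome 13 at 7.31%, chromosome 5 at 7.16% and chromosome 3 at 6.92%. On chromosome 19, the chromosome densest in genes, 13 of 2128 peaks (0.611%) had none, and chromosomes 22, 16 and 17 had 0.932%, 1.58% and 1.83%. Across the 22 autosomes the share fell with the number of CpGs per 100 bp at 2000 to 10000 bp from peaks (Pearson's r −0.933, Spearman's rho −0.915, n = 22, a description). Both measures count CpGs, and chromosomes differ in base composition and gene content.

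**Figure D2:**
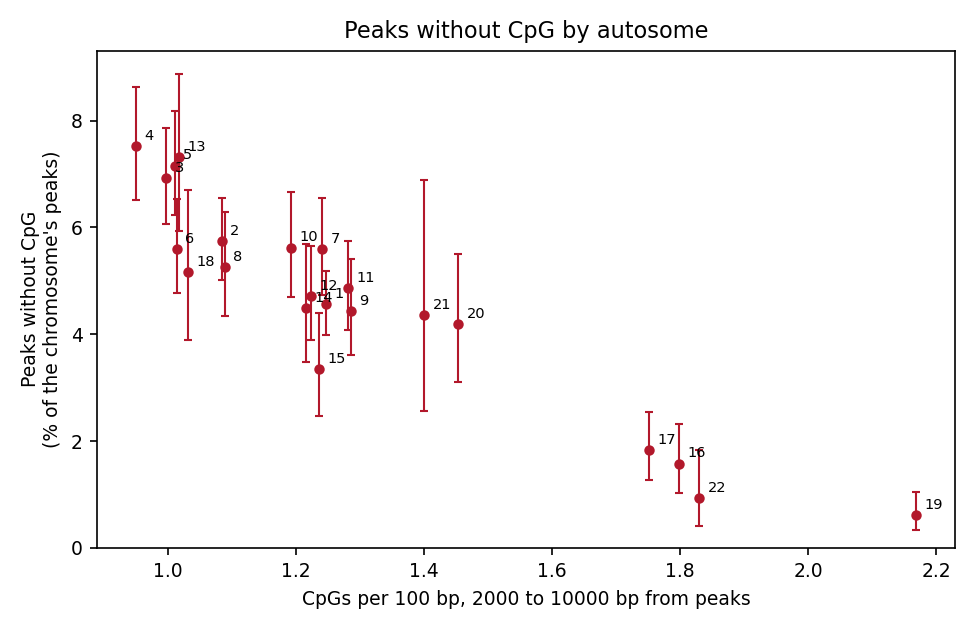
Share of each autosome's peaks that hold no CpG (percent, vertical axis, bars are 95% exact binomial intervals) against CpGs per 100 bp at 2000 to 10000 bp from peaks (horizontal axis), with each point labelled by its chromosome. Chromosome 4 stands highest at 7.52% and chromosome 19 lowest at 0.611%.

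Sites without CpG were seldom at protein-coding gene starts. Here and below, both gene ends counted as starts for 4022 protein-coding genes without a promoter window, so some counted starts are gene ends. The summit lay within 1000 bp of a protein-coding gene start in 29 of 2309 sites (1.26%, 95% exact binomial interval 0.843% to 1.80%), against 2.10% of peaks with 1 to 3 CpGs of like width and signal and 27.7% of all autosomal peaks. Inside a protein-coding gene lay 964 sites (41.7%, interval 39.7% to 43.8%), against 43.9% of the comparison peaks. Inside another gene lay 332 sites (14.4%), of which 320 were in long non-coding RNA genes, against 14.3%. Outside all genes lay 984 sites (42.6%, interval 40.6% to 44.7%), against 39.7%. The sites without CpG differed from the weighted peaks with 1 to 3 CpGs by −0.844, −2.14, 0.114 and 2.87 percentage points in these classes, and the comparison share lay outside the sites' interval in each class but the third. The first moved to −0.215 points with starts within 500 bp, −1.70 points with starts within 2000 bp and −0.256 points against peaks with 1 CpG. The third turned to −1.001 points against peaks with 1 CpG. Intervals cover counting error only, and peaks are not replicates of a condition.

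**Figure D3:**
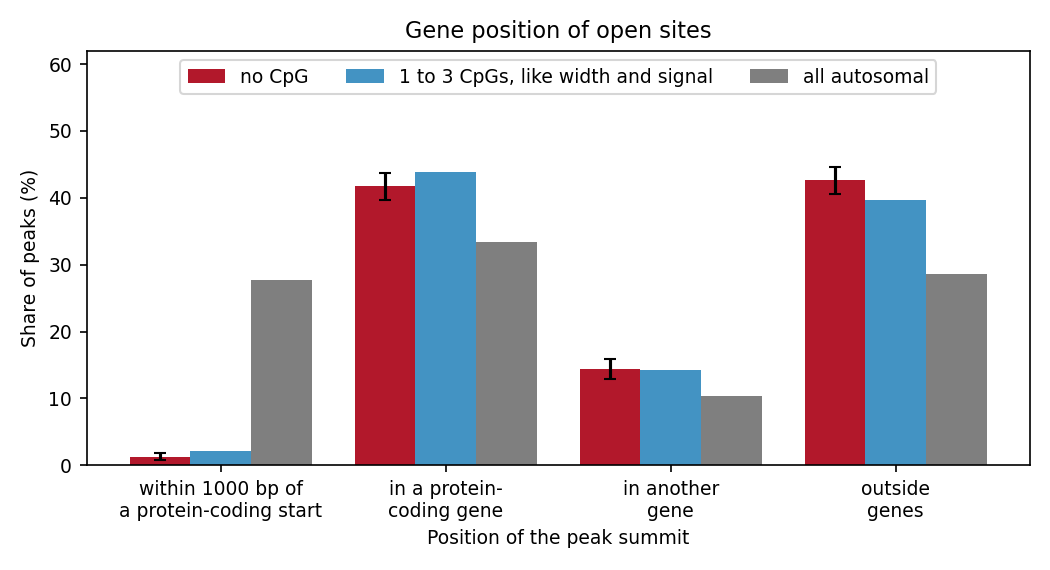
Share of peaks (percent) by the position of the summit, for peaks without CpG with 95% exact binomial intervals, peaks with 1 to 3 CpGs weighted to the same width and signal, and all autosomal peaks. Protein-coding gene starts, counted at either end for genes without a promoter window, took 1.26% of the sites without CpG against 27.7% of all peaks. Of the weighted peaks with 1 to 3 CpGs, 2.10% lay there.

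The distance to genes differed more than the class. The median site without CpG lay 80.2 kb from the nearest protein-coding gene start, against 58.8 kb for peaks with 1 to 3 CpGs and 16.5 kb for all peaks. More than 100 kb away lay 44.7% of the sites, against 37.7% and 20.9%. Of 1461 autosomal miRNA hairpins in RefSeq, 1 overlapped a site without CpG, MIR6745.

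The 8 strongest sites lay inside genes, non-coding RNA genes among them, or outside genes at the distances given here from the nearest protein-coding start, which does not tell how near a non-coding gene lies. Exon and intron annotation was not used here. The site of highest signal, 2417, was also the widest at 779 bp (chr1:119340787-119341565). It lay in the long non-coding RNA gene LINC01780, 27.7 kb from the start of HAO2, a peroxisomal hydroxyacid oxidase. Next in signal were a site 848 kb from the start of FAM98A (signal 1812) and a site inside NEGR1, a cell adhesion molecule of neurons (signal 1807). Sites at 245 kb from RAI14 (signal 1722), inside FAM174B (1707), 145 kb from RMP24 (1656), inside LINC00499 (1632) and 47.9 kb from IMPG1 (1628) followed. The other widest sites lay inside ERBB4, a receptor of neuregulins (581 bp), and inside LINC02267 (551 bp).

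At protein-coding gene starts the strongest sites were those of CAPSL (signal 1129), MMP10 (952) and ERMN, a cytoskeletal protein of myelin (852). WNT10B, a secreted WNT ligand (704), was counted next, but its site overlapped no promoter window. Both ends counted as starts for genes without such a window, so that site may lie at the gene's other end. The site at the start of the non-coding gene PURPL was stronger (1230). Inside protein-coding genes PNLIPRP3, a relative of pancreatic lipase (1579), and SPAG16, a protein of the sperm axoneme (1522), came next after NEGR1 and FAM174B. Inside other genes the next were LOC105370246, 28.4 kb from the start of the protocadherin gene PCDH9 (1480), and LOC105377009 (1392).

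The CpGs nearest to the sites were of intermediate methylation. Taken over the 4539 nearest CpGs on either side, with 10797 and 9156 reads, 51.5% of reads were methylated in replicate 1 and 58.4% in replicate 2, a mean of 54.9% ± 4.89 (SD, n = 2). Another 23 nearest CpGs lay inside a neighbouring peak and were left out. CpGs at 2000 to 10000 bp from the sites read 61.5% and 69.6%, and the nearest CpGs differed from them by −10.04 and −11.2 points, a mean of −10.6 ± 0.852 points (SD, n = 2), which exceeds the spread between replicates. Around peaks with 1 to 3 CpGs, not weighted, the nearest CpGs read 48.9% and 54.5%, against 58.8% and 68.2% at 2000 to 10000 bp. They too were below their distant level in both replicates. Inside peaks with 1 to 3 CpGs, where CpGs can be read in the open DNA itself, the values were 23.3% and 25.4%.

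Weighted over 25 strata of width and signal, the nearest CpGs read 51.8% and 58.5% around sites without CpG, against 49.8% and 55.1% around peaks with 1 to 3 CpGs. The sites without CpG were higher by 2.05 points in replicate 1 and 3.40 points in replicate 2, a mean of 2.73 ± 0.959 points (SD, n = 2). This difference exceeded its spread between replicates but moved with the distance of the CpGs. The nearest CpG lies farther from the edge of a site without CpG. When the strata also held that distance the difference was 0.752 ± 0.0940 points, and the error of that finer weighting was not tested. Against peaks with 1 CpG alone the difference was 0.272 ± 0.762 points, within the spread between replicates. CpGs at 2000 to 10000 bp, not weighted, also read higher around sites without CpG, at 61.5% and 69.6% against 58.8% and 68.2%. The part of this regional level in the difference at the nearest CpGs was not tested.

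The values formed a continuous series over the number of CpGs in the peak. The nearest CpGs outside read 54.9% ± 4.89 with no CpG inside, 54.2% ± 4.25 with 1, 51.6% ± 4.65 with 2 and 49.5% ± 3.12 with 3 CpGs (SD, n = 2 each). They read 46.3% ± 2.92 with 4 to 5 CpGs, 38.7% ± 1.89 with 6 to 10 and 10.3% ± 1.004 with more than 10 CpGs. Sites without CpG stood at the upper end of this series, next to peaks with 1 CpG and not apart from them. Width and signal were not held equal here, and both rose along the series.

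Over all 33385 CpGs within 1000 bp of the edges, weighted in the same way, methylation was 61.8% and 70.7% around sites without CpG, against 59.4% and 67.3% around peaks with 1 to 3 CpGs. The difference was 2.44 and 3.44 points, a mean of 2.94 ± 0.708 points (SD, n = 2), larger than the spread between replicates. It was 0.923 ± 0.522 points against peaks with 1 CpG, 1.91 ± 1.01 points within 500 bp, and 1.21 ± 1.20 points for peaks above the list's median −log10 q.

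Methylation was lowest at the edge and rose steeply within 150 bp. Within 50 bp of the edge it was 43.7% and 48.0% around sites without CpG, a mean of 45.8% ± 3.08, and at 100 to 150 bp it was 65.2% and 71.4%, a mean of 68.3% ± 4.39 (SD, n = 2). Around peaks with 1 to 3 CpGs the means were 44.6% ± 2.87 and 65.1% ± 3.01 at the same distances. Between 200 and 250 bp methylation dipped in both replicates, to 59.6% and 66.1% around sites without CpG, against 59.1% and 64.4% around peaks with 1 to 3 CpGs. At 250 to 300 bp it was back at 65.2% and 72.3% around the sites, against 62.3% and 68.2% around the comparison peaks. In the farthest 100 bp, at 900 to 1000 bp, the sites without CpG read 69.0% and 76.3%, against 61.5% and 70.5%.

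The rise between the first and the last 100 bp was 21.9 and 24.8 points around sites without CpG, a mean of 23.3 ± 2.04, against 15.4 and 20.2 points around peaks with 1 to 3 CpGs, a mean of 17.8 ± 3.36 (SD, n = 2 each). The rises differed by 5.57 ± 1.33 points (SD, n = 2). That gap rests on the last bin, where the classes differed most, by 6.69 points. At 800 to 900 bp they read 70.3% and 67.5% on average, a difference of 2.85 points. The SD does not cover the choice of bin. In the first 100 bp the classes were close, at 47.1% and 51.5% against 46.1% and 50.3%, a difference of 1.12 points, while from 500 bp on the sites without CpG were higher by 2.85 to 6.69 points in each 100 bp. The rise around sites without CpG was not seen (−0.860 ± 11.1 points) among CpGs with at least 5 reads weighted equally, of which 62 and 153 lay at 900 to 1000 bp in the replicates, against 795 and 534 within 100 bp. It was 33.4 ± 0.567 points for peaks whose −log10 q was over the list's median.

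**Figure D4:**
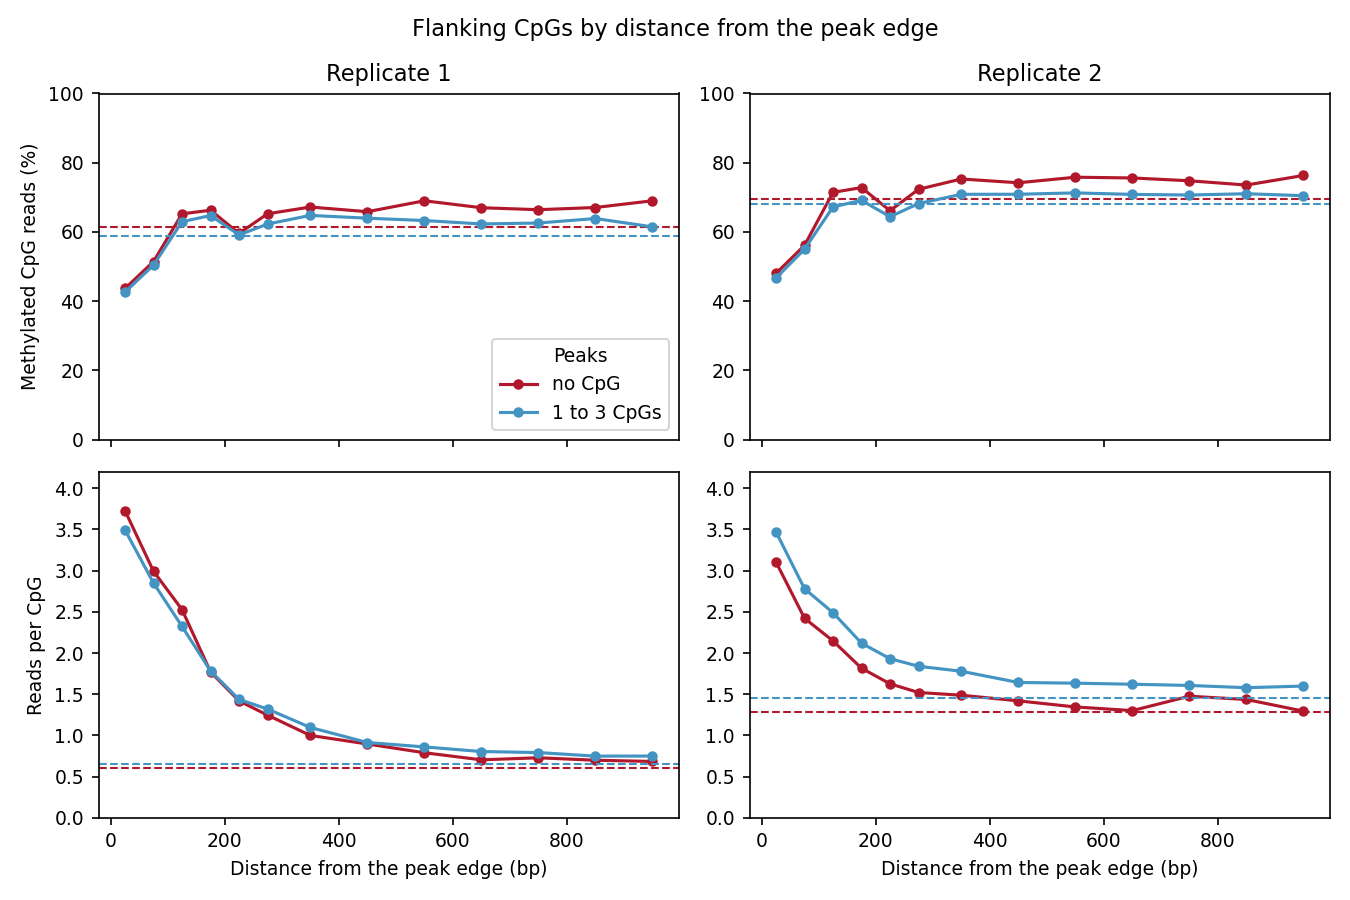
Methylated share of CpG reads (percent, upper row) and reads per CpG (lower row) against distance from the peak edge in bp, for replicate 1 (left) and replicate 2 (right), around peaks without CpG and with 1 to 3 CpGs, not weighted to like width and signal. Dashed lines mark the level 2000 to 10000 bp away. Methylation climbs to 65.2% and 71.4% by 100 to 150 bp around peaks without CpG and dips at 200 to 250 bp in both classes, while reads per CpG fall with distance.

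Coverage fell along the same axis. Around sites without CpG there were 3.73 and 3.10 reads per CpG within 50 bp of the edge and 0.684 and 1.30 at 900 to 1000 bp, so far values rest on fewer reads per CpG. The nearest CpGs had 2.38 and 2.02 reads each, against 2.50 and 2.47 around peaks with 1 to 3 CpGs of like width and signal, a ratio of 0.884 ± 0.0965 (SD, n = 2). The ratio was 0.986 ± 0.121 when the distance was held equal as well. Inside peaks with 1 to 3 CpGs each CpG had 11.4 and 10.4 reads. The part of coverage in the methylation values was not tested.

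Among the sites without CpG, the weaker ones had the more methylated surroundings. The nearest CpGs read 58.9% ± 3.96 in the quintile of lowest signal (median 221) and 49.8% ± 5.58 in the quintile of highest signal (median 738, SD, n = 2 each). By width, the narrowest quintile read 58.1% ± 2.56 and the widest 50.01% ± 5.57. Both replicates moved this way: 56.1% and 61.7% at the lowest signal, against 45.8% and 53.7% at the highest. The 711 sites with another peak within 10 kb read 48.3% ± 5.77, against 58.4% ± 4.81 at the 1598 sites with none (44.2% and 52.3% in the replicates, against 55.0% and 61.8%). Reads per nearest CpG were 2.55 and 2.40 with such a neighbour and 2.30 and 1.85 without.

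Values were alike across positions relative to genes. The nearest CpGs read 55.8% ± 0.372 at protein-coding gene starts, 54.9% ± 4.72 inside protein-coding genes, 55.3% ± 4.62 inside other genes and 54.9% ± 5.31 outside genes (SD, n = 2 each). The value at gene starts rests on 153 and 148 reads and can include gene ends counted as starts.

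Single sites were read over all CpGs within 1000 bp, for the 1206 sites (52.2%) with at least 10 flank reads in each replicate. The median site had 73.0% methylation with quartiles of 56.8% and 84.7%, against a median of 72.5% for peaks with 1 to 3 CpGs and 49.2% for all autosomal peaks with as many reads. Both replicates were over 80% at 278 sites (23.1%, 95% exact binomial interval 20.7% to 25.5%), against 21.8% of peaks with 1 to 3 CpGs of like width and signal and 11.4% of all autosomal peaks. Both were under 20% at 22 sites (1.82%, interval 1.15% to 2.75%), against 2.91% and 26.5%. Another 532 sites (44.1%) were between 20% and 80% in both. Across sites the replicates had Pearson's r of 0.730 (n = 1206, a description). The share over 80% was 17.9% with CpGs within 500 bp and 28.9% within 2000 bp, and the sites read here had a slightly higher median signal, 352, than all 2309.

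**Figure D5:**
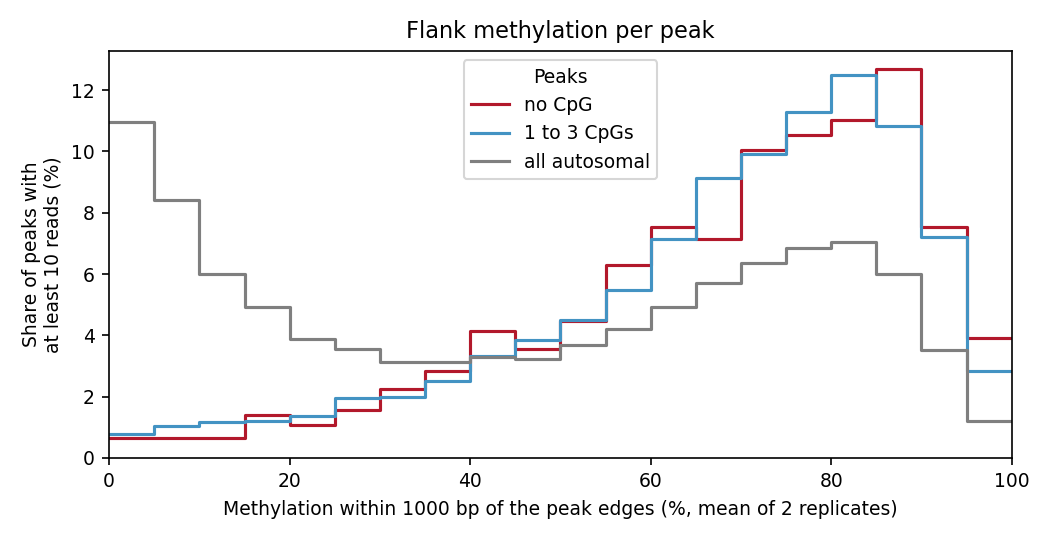
Share of peaks (percent of those with at least 10 flank reads in each replicate) by methylation of the CpGs within 1000 bp of the edges (percent, mean of 2 replicates), for peaks without CpG, with 1 to 3 CpGs and all autosomal peaks. Peaks without CpG pile up at the methylated end, with a median of 73.0%, and only 1.82% of them are under 20% in both replicates, against 26.5% of all autosomal peaks.

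The 22 sites in unmethylated surroundings lay nearer to genes and to other peaks. Their median distance to a protein-coding gene start was 30.4 kb and 9 of them (40.9%) lay within 10 kb of one. These values were 45.0 kb and 45 (16.2%) for the 278 sites in surroundings over 80% methylated. The 532 sites between 20% and 80% in both replicates stood at 68.3 kb and 13.5%, and all 1206 sites at 61.7 kb and 14.7%. The distance thus did not follow methylation in order. The next peak was a median of 2.37 kb from the 22 sites, against 22.3 kb at the 278 sites and 17.8 kb at all 1206. The part of such neighbours in these values was not tested.

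The flanks of a site often differed. For 930 sites with at least 10 reads on each side, both replicates pooled, the methylation of the left and right flank differed by a median of 16.0 points, with Pearson's r of 0.332 across sites (n = 930, a description). Both sides were over 80% at 208 sites and under 20% at 12, and at 10 sites one side was under 20% and the other over 80%. At about 10 reads a side, counting error alone spreads such values widely.

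Among the 66 sites with at least 50 flank reads in each replicate, the lowest flanks lay near gene starts. Around the site inside ARID1B, a subunit of the BAF chromatin remodeller, 0.794% of 126 reads and 2.37% of 380 reads were methylated, a mean of 1.58% ± 1.11 (SD, n = 2). The site lies 3.16 kb from the ARID1B start and has 95 CpGs within 1000 bp, although none inside its 212 bp. PERP, a p53 target found at desmosomes, followed with 3.22% of 342 and 2.37% of 211 reads. The site near NTF3, a neurotrophin, had 1.99% and 3.70%, and that inside TFAP2B, a transcription factor of the AP-2 family, 2.13% and 4.35%. In all 4 the flanks were methylated at under 5% in both replicates, at 1.10 to 5.49 kb from a gene start.

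The highest flanks were those at ADSS1, an adenylosuccinate synthase (89.7% of 58 reads and 89.3% of 121 reads), TMEM266 (88.2% and 90%), TEAD4, a transcription factor of the Hippo pathway (85.3% of 95 and 92.9% of 141 reads), and IDH2, a mitochondrial isocitrate dehydrogenase (84.7% and 89.7%). The ADSS1 site was 1.64 kb from a counted start of the gene, near the 1.10 kb of the PERP site with its unmethylated flank. The TEAD4 site lay 0.995 kb from a counted start but outside the gene. For a gene without a promoter window, such a start can be the gene's other end. These 4 sites had 38 to 51 CpGs within 1000 bp, against a median of 12 at all sites without CpG, and the minimum of 50 reads favours such surroundings. A CpG-free open site within 1.64 kb of a counted start was thus found both in unmethylated and in methylated surroundings.

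Of the sites with printed sequences, that of PURPL had a flank methylation of 16.7% of 114 reads and 29.9% of 67 reads. The site of LINC01997 had 51.4% of 70 and 71.4% of 28 reads, and that of GS1-204I12.4 had 31.6% of 57 and 51.7% of 29 reads. At MMP10 36.8% of 19 and 66.7% of 15 reads were methylated, and at CAPSL 37.5% of 8 and 92.3% of 13 reads. At CAPSL, MMP10 and GPC5-AS1 (4 and 3 reads) the depth cannot place the value. The strongest sites also had few reads: LINC01780 read 69.2% of 13 and 40.7% of 27 reads, FAM98A 36.4% of 11 and 28.6% of 7, NEGR1 59.3% of 27 and 70.0% of 10, FAM174B 40.0% of 20 and 33.3% of 45, and RMP24 77.8% of 9 and 82.4% of 17.

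Genes of the pluripotency list had a site without CpG about as often as other genes. Of 44 autosomal genes in the pluripotency list, 3 (6.82%) had one within the gene or 10 kb, against 5.63% of 19122 protein-coding genes. They were DNMT3B, the de novo methyltransferase of embryonic cells, KLF17, a factor of naive pluripotency, and FOXO1, a forkhead factor. Of 15 autosomal genes in the DNA methylation list, 2 (13.3%) had one, DNMT3B again and TET1, which oxidises methylated cytosine. A peak of any kind was near 13 of these 15 (86.7%).

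The flanks of these sites ranged widely, and most were methylated. Inside DNMT3B, 10.4 kb from its start, 98.3% of 59 reads and 97.7% of 43 reads were methylated, a mean of 98.0% ± 0.446 (SD, n = 2). The site 9.34 kb from the TET1 start read 90.5% of 21 and 83.7% of 43 reads. KLF17 had a site 0.922 kb from its start (chr1:44119673-44119923) with 72.4% of 29 and 84.9% of 139 reads. The other site counted to KLF17 lay far from that one, inside LOC107984948 (chr1:44036614-44036830), with 63.6% of 33 and 58.7% of 46 reads. Its nearest protein-coding start was that of SLC6A9, at 5.24 kb. The site 6.003 kb from the FOXO1 start read 0% of 8 and 33.3% of 12 reads, too few to place it. The 5 sites had signals from 204 to 401, against a median of 342 over all sites without CpG.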

How the data were processed

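ATAC-Me libraries of H9 cells, 1 group with 2 replicates, were analysed from deposited files. Per replicate the authors deposited a methylation fraction and a count of covering reads for each CpG. A CpG that no read covers has a fraction of 0 in the table and added nothing. Methylated reads are the fraction times the count, whole within 0.001 reads. The authors also deposited 1 peak list with a score capped by the caller, a signal value, the summit and a −log10 q-value for each peak. The signal and −log10 q are the authors' values and were used only to describe or group peaks within that list; the score was not used further. Trim Galore, Genrich and hg38 (GRCh38) are named, per the submitters' processing notes. The sources used here do not give the mapper, the methylation caller, versions, any removal of duplicates or how replicates entered peak calling. Incomplete conversion would raise methylation values. Without molecular identifiers, reads need not be independent molecules.

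Autosomal peaks without any CpG row were taken, and 96 peaks off the autosomes were not analysed. All 569950 CGs in 33725 RefSeq promoter windows were listed as CpG rows. Nearest CpGs were those closest on each side within 1000 bp and outside other peaks. Comparison peaks with 1 to 3 CpGs were weighted to the sites without CpG over 25 strata, quintiles of width by quintiles of signal. Methylation is methylated over all reads, per replicate, then mean and SD. Depth is 10797 and 9156 reads on nearest CpGs, and a median of 12 and 16 flank reads per site. Shares carry 95% exact Clopper-Pearson intervals. Gene starts came from RefSeq windows on GRCh38.p14; for 4022 protein-coding genes without one, both gene ends counted. Genes were placed in lists by symbol.

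The members and lists were chosen with earlier results of these data known. Named sites follow a rule: the 8 of highest signal, the 4 of highest signal per gene position, the 3 widest, the 4 lowest and 4 highest flanks with at least 50 reads in each replicate, up to 6 in promoter windows, and any within 10 kb of listed genes. The difference weighted by width and signal was tested on simulated reads, where its largest error, read sampling included, was above the smallest differences reported. Strata that also held distance were not simulated. Python 3.11.15, numpy 2.4.6, pandas 2.3.3 and scipy 1.17.1 were used. Alternatives covered strata, distances, read minimums, weighting, peak significance, altered CpGs, peak edges, the comparison class and each replicate left out. No genome sequence was used, so most sites are given without sequence.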

Additional observations from a re-analysis of the deposited data

How the results depend on the processing

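No paired analysis was possible because the samples form 1 group, and no other group shares their replicate numbers; classes of sites were compared within each replicate. Of 63 alternative values, 42 stayed close to the reported value, 19 moved and 2 turned sign. Close means within the SD between replicates, and for shares within the reach of the exact interval. For the number of sites it means within a small factor. A mean of 2 replicates always stays within that SD when 1 replicate is left out. Those values count as close by arithmetic and do not measure stability. The nearest-CpG difference (2.73 points) was 0.272 points against peaks with 1 CpG and 0.752 points with strata by distance, and 2.05 to 3.40 points with a replicate left out. The difference over all flanking CpGs (2.94 points) was 1.21 points for peaks above the median −log10 q, 4.10 points with CpGs of at least 5 reads weighted equally, 0.923 points against peaks with 1 CpG, 1.91 points within 500 bp and 4.18 points within 2000 bp, and 2.44 to 3.44 points with a replicate left out. The level at the nearest CpGs (54.9%) was 47.6% with CpGs of at least 5 reads weighted equally. The rise (23.3 points) was −0.860 points with CpGs of at least 5 reads weighted equally, and 33.4 points for peaks above the median −log10 q. The share of flanks over 80% (23.1%) was 19.3% with at least 20 reads, 18.2% with at least 50, 17.9% within 500 bp, 28.9% within 2000 bp, and 31.9% to 46.1% in a single replicate, where only that replicate has to pass. The read ratio (0.884) was 0.986 with strata by distance. The gene start difference (−0.844 points) was −0.215 points with starts within 500 bp, −1.70 points within 2000 bp and −0.256 points against peaks with 1 CpG; the difference in other genes (0.114 points) was −1.001 points against peaks with 1 CpG. The causes of these shifts were not tested. The number of sites ran from 2283 to 2398 over changed peak edges and CpG rows. About 2 reads per nearest CpG limit any single site, and 1103 sites had too few flank reads to be read one by one.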
